A study of Homo sapiens with 47 samples.

Results

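The genes described here encode the subunits of RNA polymerases I, II and III. They were taken from a list of 29 genes by current symbol, and all 29 were among the 58395 genes counted by RNA-seq in human HEK293T cells, an embryonic kidney cell line. The groups compared were wild-type HEK293T cells and an EAF1-mutant line made from them, with 3 libraries each of total RNA from which ribosomal RNA had been depleted. In the mutant line, both alleles of EAF1 carry point mutations that replace residues of the site that binds the Mediator subunit MED26 with alanines. The line is 1 clone obtained by CRISPR knock-in, so what the mutation does and what is particular to that clone cannot be told apart. The authors describe biological replicates and repeats of their experiments, with RNA-seq not among the exceptions they list. The labels do not tie each library to its own culture; where cultures were shared, p-values measure only the spread between libraries, which may be technical.

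Pol I makes the precursor of the large ribosomal RNAs in the nucleolus, Pol II makes messenger RNAs and most small nuclear RNAs, and Pol III makes transfer RNAs and other short RNAs. Each is a complex built around a cleft that is formed by its largest and second largest subunits, and some smaller subunits are common to all of them while others are common to Pol I and Pol III alone. The genes of all these subunits are themselves transcribed by Pol II, and EAF1 belongs to complexes that act on Pol II elongation.

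The 29 genes fall into 5 classes. POLR2E, POLR2F, POLR2H, POLR2K and POLR2L are shared by all polymerases. POLR1C and POLR1D are shared by Pol I and Pol III, where they take the place that POLR2C and POLR2J have in Pol II. Another 7 genes are particular to Pol II, 6 to Pol I and 9 to Pol III. Library totals were 59137210, 52541541 and 55637032 counts in wild type and 57198018, 53369621 and 66611451 in the mutant. At this depth every subunit had from 790 to 16496 counts in a library, and all 29 passed the low-count filter, as did 28025 genes in all. Values are CPM, the counts scaled to a common library size after TMM factors had corrected for composition.

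The markers set for the cell line were detected in both groups, some of them at low levels. The 7 embryonic kidney and neurofilament genes (PAX2, SALL1, LHX1, EMX2, NEFM, NEFL and INA) summed to 147.1, 159.3 and 159.6 CPM in the wild-type libraries and to 117.1, 115.5 and 116.8 CPM in the mutant libraries. NEFL was the most abundant by the mean of all 6 libraries, and PAX2 was the least, at 0.679 ± 0.178 CPM (SD, n = 3) in wild type. The sums rest mainly on the neurofilament genes NEFM and NEFL, the latter with a wild-type mean of 53.4 CPM. The kidney genes SALL1, LHX1 and EMX2 had wild-type means of 23.3, 6.24 and 2.47 CPM. NEFM, which encodes a neurofilament subunit, had 56.2, 65.9 and 65.1 CPM in wild-type libraries and 24.6, 25.2 and 25.6 CPM in the mutant. It was lower by a log2 fold change of -1.31 with a standard error of 0.05 (adjusted p = 1.35e-15, edgeR's quasi-likelihood test with Benjamini-Hochberg adjustment over all tested genes). Of the other 6, NEFL fell and SALL1 rose past an adjusted p of 0.01. The 6 blood, liver and fibroblast genes (PTPRC, CD3E, ALB, APOA2, COL1A2 and DCN) summed to at most 0.333 CPM in a library, with ALB the most abundant, and none passed the filter. RNA of EAF1 itself went from 57.4 ± 0.951 CPM (SD, n = 3) to 18.8 ± 0.884 CPM (SD, n = 3). A point mutation does not remove the RNA, so this value does not check the labels.

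In wild-type cells, levels were compared between genes as CPM per kilobase of all annotated exons (CPM per kb). The median level was 24.0 CPM per kb for the 7 Pol II subunits, 19.9 for the 5 shared by all polymerases, 13.3 for the 6 of Pol I, 9.98 for the 2 shared by Pol I and III and 9.48 for the 9 of Pol III. These levels depend on the length assigned to a gene. Per kilobase of the longest transcript the medians were 39.0, 33.9, 15.4, 23.5 and 11.8 in the same order, and per kilobase of the Ensembl canonical transcript, a length chosen after seeing the data, 61.7, 33.9, 18.3, 75.8 and 12.4. With all of these lengths the Pol II median was above that of Pol I, and the Pol I median above that of Pol III. The class shared by Pol I and III moved from the fourth place to the first.

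From POLR2J at the top to POLR3C at the bottom, the mean level per kb of all exons spanned 22.5-fold. With the other lengths the range was narrower and POLR3D was the lowest. It ran from 82.9 (POLR2J) to 6.22 CPM per kb of the longest transcript, and from 86.5 (POLR1D) to 6.405 per kb of the canonical one. POLR2J, part of the platform on which Pol II is assembled, had 79.6, 87.1 and 82.1 CPM per kb in the 3 wild-type libraries. POLR2L, a small subunit of all polymerases, had 54.2, 49.5 and 53.8 CPM per kb. POLR2B, the second largest subunit of Pol II, had 43.8, 44.9 and 43.7 CPM per kb. The libraries of these 3 genes did not overlap with each other or with the gene next in order. Counts of POLR2J are uncertain, since POLR2J2 and POLR2J3 are near-identical copies of it and the handling of reads that map to several places is not given in the sources used here. POLR2L shares 22.8% of its exonic bases with the antisense gene CD151, and the strand setting of the counting is not given either.

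At the lower end, POLR1D had 4.74, 4.96 and 4.84 CPM per kb in the wild-type libraries. POLR3F, which belongs to the Pol III trimer that helps open promoter DNA, had 3.91, 4.00 and 3.81 CPM per kb. POLR3C, of the same trimer, had 3.72, 3.61 and 3.74 CPM per kb. No library of these genes overlapped with a gene beside it in the order. Their place rests on the exon model, since the annotated exons of POLR1D cover 12363 bases and its canonical transcript has 693, which puts POLR1D at 86.5 CPM per kb of that transcript, the highest of all 29. Between neighbours in the order of all 29 genes, 13 of 28 pairs had overlapping wild-type libraries, so the order within them is not resolved.

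**Figure D1:**
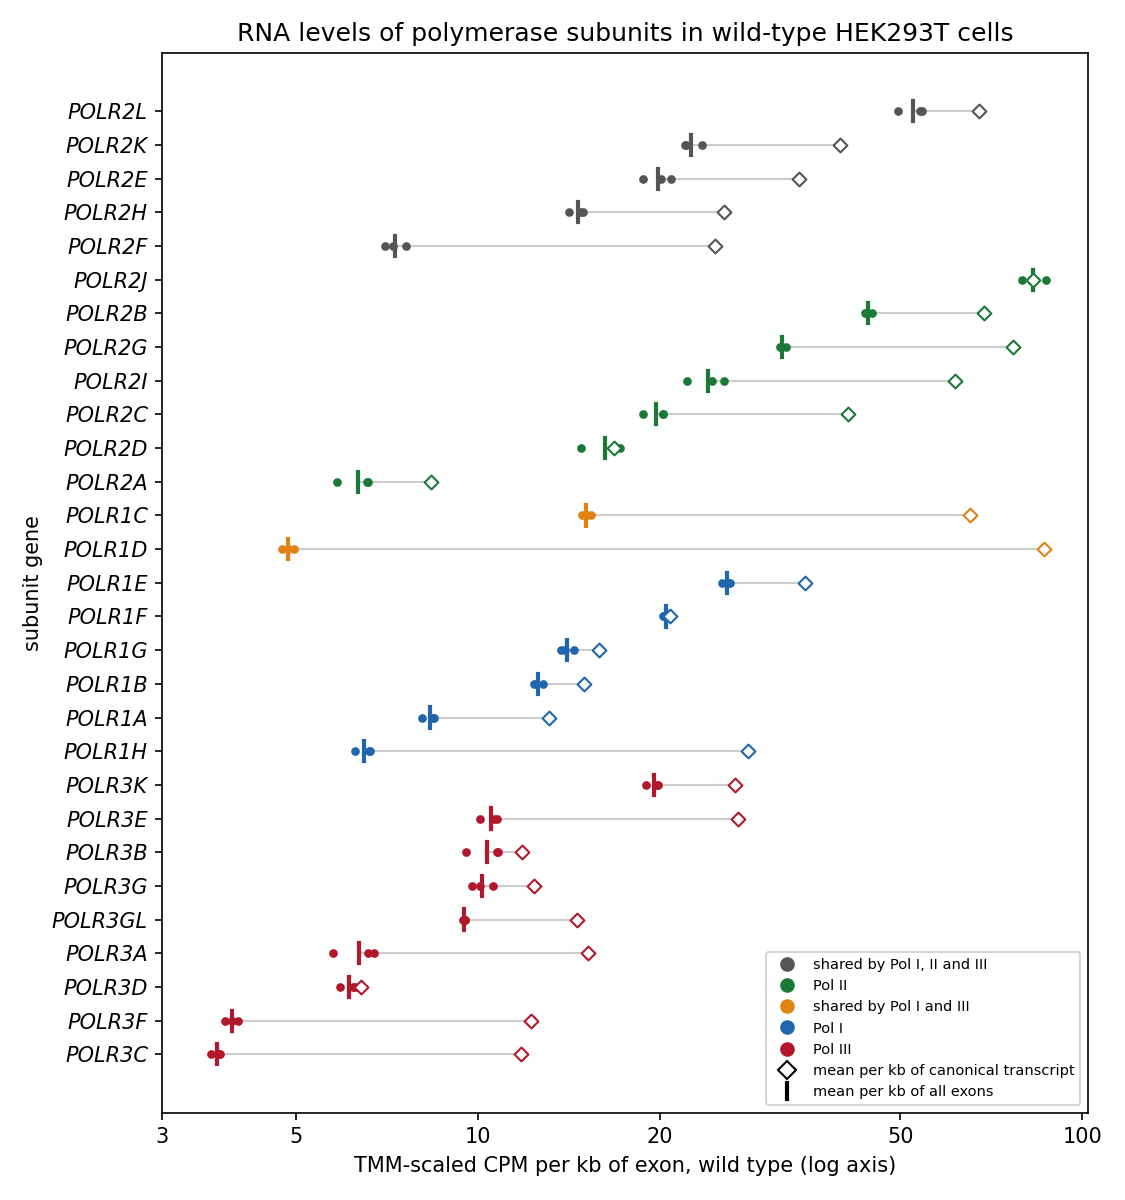
Wild-type level of each subunit gene in TMM-scaled CPM per kb of all exons on a log axis, with points for the 3 libraries, a bar for their mean and an open diamond for the mean per kb of the Ensembl canonical transcript. Genes are grouped by polymerase, and the gap between bar and diamond is widest for POLR1D, from 4.85 to 86.5 CPM per kb.

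Subunits at equivalent positions did not have equal levels. POLR2A, the catalytic largest subunit of Pol II that carries its regulated C-terminal tail, had 5.83, 6.58 and 6.54 CPM per kb in the wild-type libraries, POLR1A of Pol I had 8.40, 8.08 and 8.46, and POLR3A of Pol III had 5.75, 6.73 and 6.56. All libraries of POLR1A lay above those of POLR2A, whereas POLR3A and POLR2A overlapped. With the other lengths POLR3A was above POLR2A, at 13.2 against 7.82 CPM per kb of the longest transcript and 15.2 against 8.36 per kb of the canonical one, and POLR1A was at 13.1 with both. POLR2A was the lowest of the 7 Pol II subunits with each of the 3 lengths. The second largest subunit of Pol II exceeded the largest: the ratio of POLR2B to POLR2A was 7.01 ± 0.450 per kb of exon (SD, n = 3). In Pol I, POLR1B to POLR1A was 1.51 ± 0.0635 (SD, n = 3). In Pol III, POLR3B to POLR3A was 1.63 ± 0.0301 (SD, n = 3), but 0.896 per kb of the longest transcript and 0.778 per kb of the canonical one, so its direction depends on the length. POLR2B stood at 4.28 ± 0.277 times POLR3B and 3.52 ± 0.0253 times POLR1B (SD, n = 3), and above both with every length.

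In EAF1-mutant cells, RNA of most subunits of Pol I and Pol III was lower than in wild type, while few Pol II subunits moved past the threshold. At an adjusted p under 0.01 (edgeR's quasi-likelihood test, Benjamini-Hochberg), 16 of the 29 subunits fell and 1 rose, where 21.1% of all tested genes were lower and 20.5% higher. Among tested protein-coding genes averaging 10 CPM or more, 37.0% were lower and 23.9% higher at that threshold. With a log2 fold change over 0.5 in size also required, 2 subunits fell, POLR3F and POLR3G, and none rose, while 9.36% of all tested genes were lower and 11.0% higher. The falls of the subunits were therefore many but mostly small. Every mutant library lay below every wild-type library for 18 subunits and above for 1, beside 28.1% and 29.2% of all tested genes. In bulk RNA, fewer cells that express a gene and less RNA per cell cannot be told apart.

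By class, 5 of 6 Pol I subunits fell, 2 of 2 shared by Pol I and III, 7 of 9 of Pol III, 1 of 5 shared by all polymerases and 1 of 7 of Pol II, and the riser was of Pol II. The median log2 fold change was -0.33 for Pol I, -0.28 for the pair shared by Pol I and III, -0.39 for Pol III, -0.07 for the class shared by all and -0.0025 for Pol II, beside 0.01 over all tested genes and -0.05 over those protein-coding genes. Each mutant library gave similar medians against the wild-type mean. For Pol I they were -0.35, -0.31 and -0.32, and for Pol III -0.35, -0.42 and -0.35. For Pol II they were 0.01, -0.05 and 0.03. Differences between the classes were not tested.

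Part of these counts depends on the scaling. Scaling by library totals alone, without TMM, moved the median of all tested genes from 0.01 to 0.13 on the log2 scale, and edgeR then put 4138 genes lower and 8339 higher past the adjusted p of 0.01 instead of 5902 and 5736. Under that scaling 11 subunits fell and 4 rose. The medians of Pol I, the pair shared by Pol I and III, and Pol III stayed below 0, at -0.21, -0.16 and -0.28, while those of Pol II and of the class shared by all turned above 0, to 0.11 and 0.04. Relative to the median of all tested genes, the Pol I, Pol I and III, and Pol III medians were -0.34, -0.29 and -0.40, and 23 of 29 subunits lay below that median. Scaling moves all genes by nearly the same amount, so these relative values hardly depend on it by construction.

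**Figure D2:**
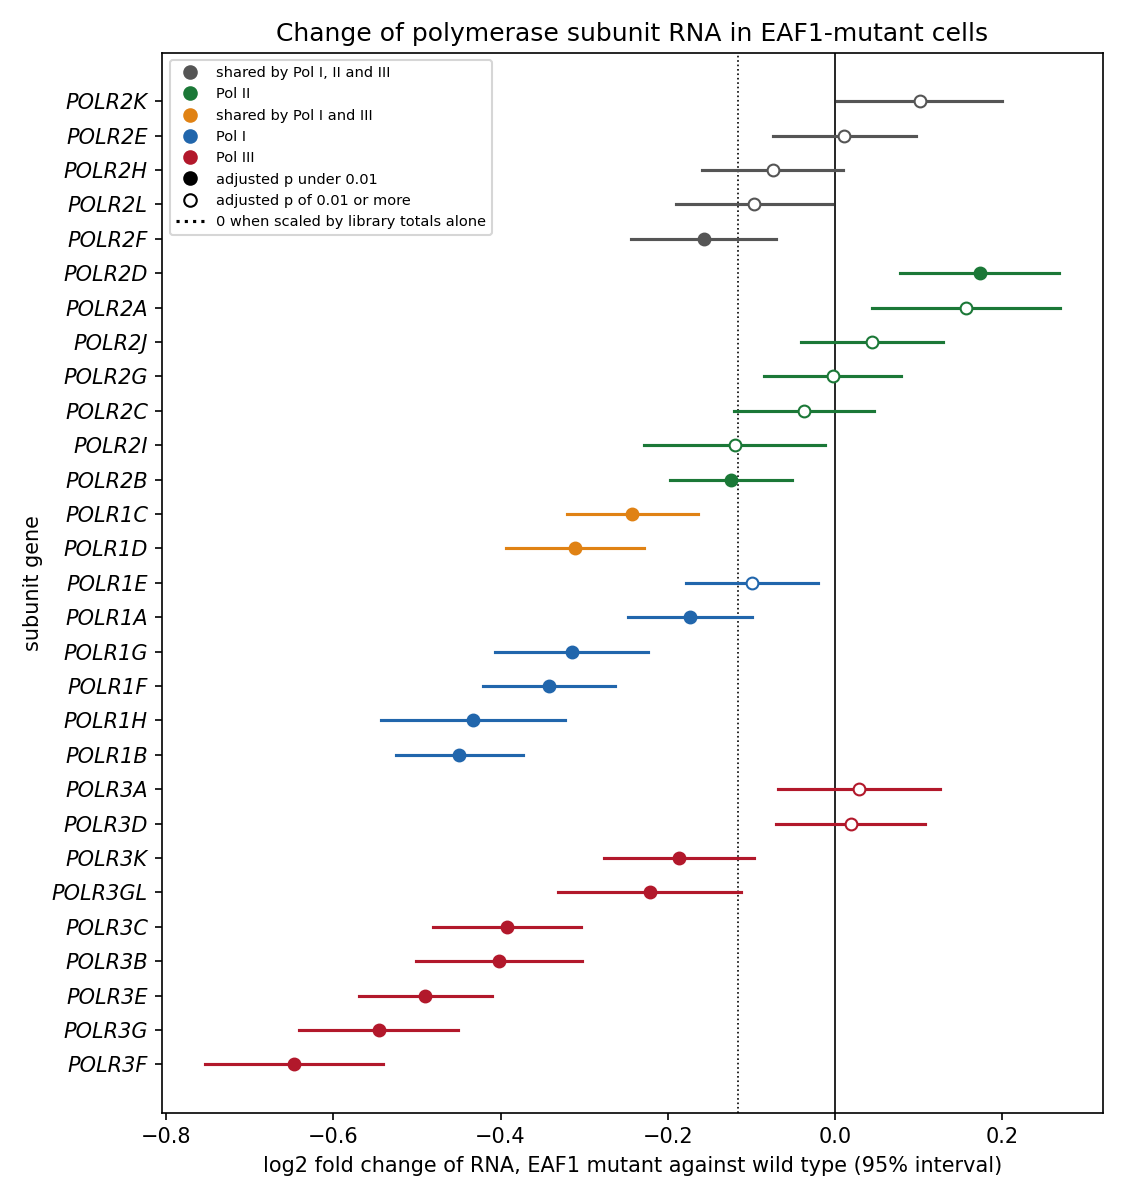
Log2 fold change of each subunit in EAF1-mutant against wild-type cells, with its 95% interval; filled points passed an adjusted p of 0.01 (edgeR's quasi-likelihood test, Benjamini-Hochberg). The dotted line marks where 0 lies with library totals alone, and with that scaling POLR2C, POLR2G, POLR2H, POLR2L and POLR1E change to the other side of 0.

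Among the subunits particular to Pol II, POLR2A (ENSG00000181222, chromosome 17, 7484366 to 7514616 in GRCh38) had 48.7, 55.0 and 54.6 CPM in wild-type libraries and 53.8, 63.8 and 59.0 CPM in the mutant. The groups overlapped, as the lowest mutant library lay within the range of wild type. The log2 fold change was 0.16, with a 95% interval from 0.04 to 0.27, and missed the threshold (adjusted p = 0.0190, edgeR's quasi-likelihood test). It passed with library totals alone and when the first mutant library was left out (adjusted p = 0.00282, edgeR), and with no filter or a replicate block. The log2 fold change of POLR2A shrank to 0.088 without the first wild-type library and to 0.095 without the second mutant library, and passed in neither case. POLR2D, which forms the stalk of Pol II with POLR2G, had 77.3, 89.6 and 87.1 CPM in wild-type libraries and 94.6, 93.9 and 97.8 CPM in the mutant. Every mutant library was higher, the first wild-type library stood below the other wild-type ones, and the log2 fold change was 0.17 with a standard error of 0.05 (edgeR adjusted p = 0.00292). Without that wild-type library it was 0.10 (adjusted p = 0.0479, edgeR), which no longer passed, nor did it without the third mutant library (adjusted p = 0.0236, edgeR).

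POLR2B (ENSG00000047315, chromosome 4, 56977722 to 57031158) had 258.3, 264.3 and 257.3 CPM in wild-type libraries and 243.9, 232.6 and 238.9 CPM in the mutant. No libraries overlapped, and the gene fell to 91.7% of its wild-type level (log2 fold change -0.12 with a standard error of 0.04, adjusted p = 0.00477, edgeR). This small fall did not pass with library totals alone, where the log2 fold change was -0.0090, or without the second or the third mutant library. The remaining Pol II subunits POLR2C, POLR2G, POLR2I and POLR2J had log2 fold changes from -0.12 to 0.04, overlapping groups, and no adjusted p under 0.01. The 95% interval was from -0.08 to 0.08 for POLR2G and from -0.04 to 0.13 for POLR2J, which had 74.6, 81.6 and 76.9 CPM in wild-type libraries and 78.2, 82.5 and 79.8 CPM in the mutant and passed as higher with library totals alone. POLR2I passed as lower without the second wild-type library, at -0.18 on the log2 scale (adjusted p = 0.00288, edgeR). Of the exonic bases of POLR2I, 69.0% are shared with an unclassified antisense transcript and 19.1% with TBCB.

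Among the subunits of all polymerases, POLR2F fell, from 50.6, 49.2 and 53.2 CPM to 45.3, 45.2 and 46.7 CPM. Its groups did not overlap, and the log2 fold change was -0.16 with a standard error of 0.04 (edgeR adjusted p = 0.00306). The call was lost with library totals alone and without the third wild-type, the first mutant or the second mutant library. POLR2E, POLR2H, POLR2K and POLR2L had log2 fold changes of 0.01, -0.07, 0.10 and -0.10 with adjusted p-values over 0.05 (edgeR), and only POLR2H among these 4 had every mutant library below every wild-type library. POLR2L had 61.1, 55.8 and 60.6 CPM in wild-type libraries and 53.6, 54.2 and 58.1 CPM in the mutant, which overlapped. It passed as lower without the second wild-type library, at -0.15 on the log2 scale (adjusted p = 0.00565, edgeR). With library totals alone POLR2K passed as higher, whereas without the first mutant library its log2 fold change was 0.049.

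POLR1C and POLR1D, the assembly platform of Pol I and Pol III, both fell. POLR1C had 84.6, 81.7 and 83.2 CPM in wild-type libraries and 71.6, 69.6 and 69.7 CPM in the mutant. POLR1D (ENSG00000186184, chromosome 13, 27620742 to 27744237) had 58.6, 61.3 and 59.8 CPM in wild-type libraries and 49.2, 47.3 and 48.3 CPM in the mutant. In neither gene did the groups overlap, and the log2 fold changes were -0.24 (adjusted p = 8.87e-06, edgeR) and -0.31 (adjusted p = 5.67e-07, edgeR). Their counterparts in Pol II, POLR2C and POLR2J, had -0.04 and 0.04.

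Of the Pol I subunits, POLR1A (ENSG00000068654, chromosome 2, 86020216 to 86106155), the catalytic largest subunit, had 165.5, 159.1 and 166.6 CPM in wild-type libraries and 144.7, 144.6 and 146.4 CPM in the mutant. All mutant libraries were lower, close together, and the log2 fold change was -0.17 with a standard error of 0.04 (edgeR adjusted p = 2.75e-04), or -0.06 with library totals alone, which did not pass. POLR1B, the second largest subunit (ENSG00000125630, chromosome 2, 112541915 to 112579818), went from 111.2, 115.0 and 112.2 CPM to 84.1, 82.3 and 81.5 CPM. With all libraries this was the largest fall in Pol I, to 73.2% of wild type (log2 fold change -0.45, 95% interval -0.53 to -0.37, adjusted p = 4.07e-10, edgeR). POLR1H was close, at -0.43, so their order is not resolved. POLR1H fell further without the second wild-type library (-0.47 against -0.45) and without the third mutant library (-0.48 against -0.44).

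The other Pol I subunits all had mutant libraries below wild type with no overlap. POLR1H, which takes part in the cleavage of backtracked RNA, went from 24.3, 22.9 and 24.2 CPM to 17.7, 16.5 and 18.6 CPM (log2 fold change -0.43, adjusted p = 2.92e-07, edgeR). POLR1F, a stalk subunit, fell by 0.34 on the log2 scale, and POLR1G, which forms a TFIIF-like pair with POLR1E, by 0.31. POLR1E itself had 64.5 ± 1.08 CPM in wild-type libraries and 60.2 ± 0.764 CPM in the mutant (SD, n = 3), a log2 fold change of -0.10 that missed the threshold (adjusted p = 0.0344, edgeR). Counts of POLR1G and POLR1H are uncertain where strand was not used, because 49.8% of the exonic bases of POLR1G lie antisense to ERCC1, itself at a log2 fold change of -0.22, and 24.5% of those of POLR1H lie antisense to POLR1HASP, at -0.0045.

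In Pol III, 7 of 9 subunits fell, and the largest subunit was 1 of the 2 that did not. POLR3A (ENSG00000148606, chromosome 10, 77953148 to 78029522) had 90.9, 106.4 and 103.7 CPM in wild-type libraries and 100.6, 103.8 and 102.5 CPM in the mutant. The mutant libraries lay inside the wild-type range, and the log2 fold change was 0.03 with a 95% interval from -0.07 to 0.13 (adjusted p = 0.633, edgeR). POLR3B, the second largest subunit, had 45.5, 51.4 and 51.1 CPM in wild-type libraries and 38.7, 37.0 and 36.4 CPM in the mutant. It fell by 0.40 on the log2 scale (standard error 0.05, adjusted p = 1.96e-07, edgeR), with no overlap. The ratio of POLR3B to POLR3A per kb of exon thereby went from 1.63 ± 0.0301 in wild type to 1.21 ± 0.0566 in the mutant (SD, n = 3).

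The initiation trimer and the TFIIF-like pair held the 3 largest falls of all 29 genes, those of POLR3F, POLR3G and POLR3E. POLR3F (ENSG00000132664, chromosome 20, 18466878 to 18484648) had 26.4, 27.0 and 25.7 CPM in wild-type libraries and 17.7, 15.9 and 16.9 CPM in the mutant. The groups were far apart, and the gene fell to 63.8% of wild type (log2 fold change -0.65, 95% interval -0.75 to -0.54, adjusted p = 2.19e-10, edgeR). POLR3C (ENSG00000186141, chromosome 1, 145824053 to 145844402), also of the trimer, had 44.9, 43.6 and 45.1 CPM in wild-type libraries and 34.1, 32.5 and 35.0 CPM in the mutant. It fell by 0.39 on the log2 scale (adjusted p = 4.86e-08, edgeR), with no overlap. POLR3E, of the TFIIF-like pair, had 102.0, 95.5 and 100.7 CPM in wild-type libraries and 70.8, 70.2 and 71.4 CPM in the mutant. This was a fall to 71.2% of wild type (log2 fold change -0.49, adjusted p = 1.98e-10, edgeR), and DESeq2 put it just past a log2 fold change of -0.5 as well. Its partner POLR3D had 34.2 ± 1.03 CPM in wild-type libraries and 34.6 ± 0.549 CPM in the mutant (SD, n = 3), with a log2 fold change of 0.02 and a 95% interval from -0.07 to 0.11. POLR3K, a small subunit needed for termination, fell by 0.19 (adjusted p = 8.80e-04, edgeR), a call lost with library totals alone.

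**Figure D3:**
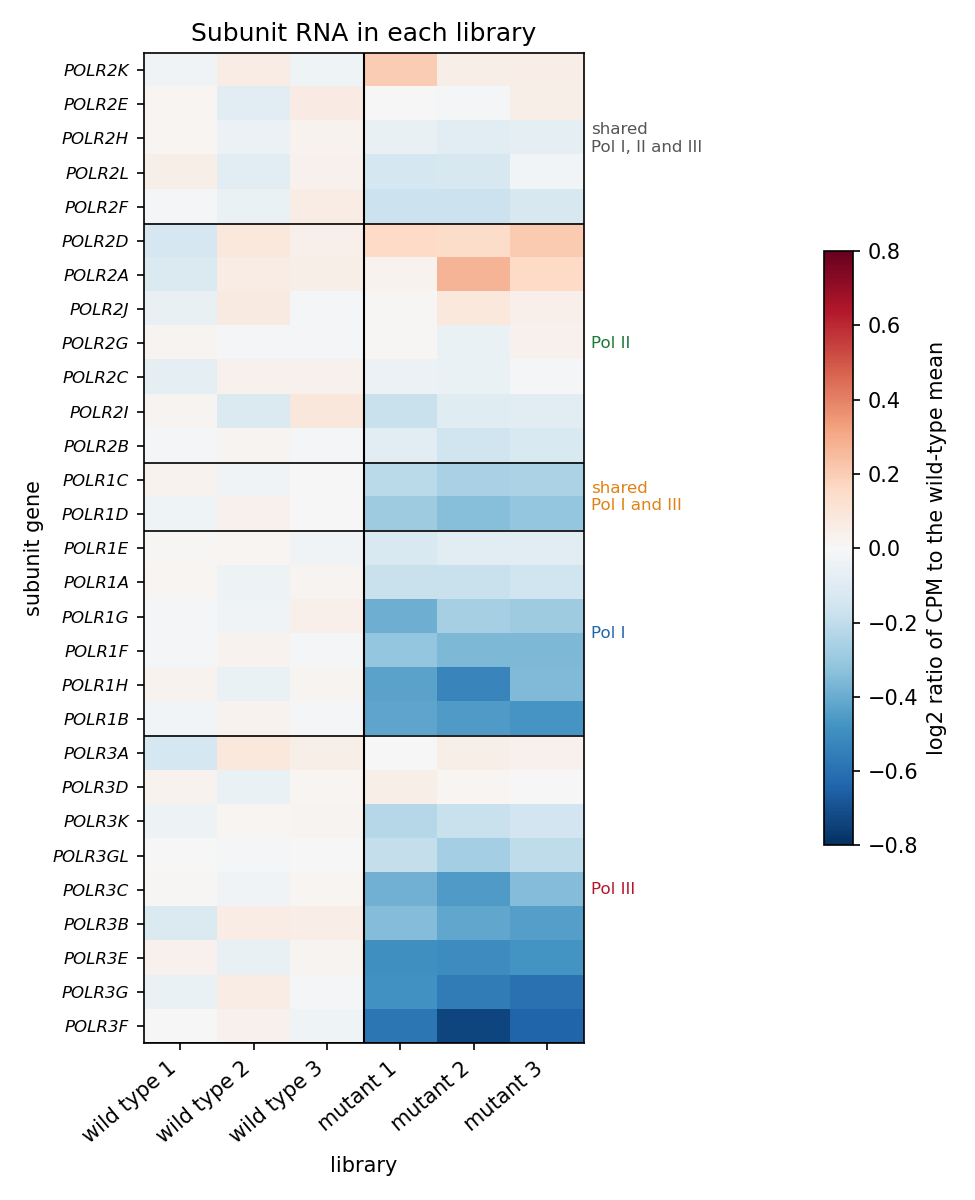
Log2 ratio of each library's CPM to the wild-type mean for the 29 subunits, with 3 wild-type libraries on the left and 3 mutant libraries on the right, grouped by polymerase. Blue cells below 0 fill the mutant columns for Pol I, for the subunits shared by Pol I and III, and for Pol III except POLR3A and POLR3D; with library totals alone all mutant columns shift upward and POLR1E crosses 0.

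POLR3G and POLR3GL are alternative members of the initiation trimer encoded by separate genes, POLR3G being known for its expression in stem cells and tumour lines and POLR3GL for its expression in differentiated tissues. POLR3G (ENSG00000113356, chromosome 5, 90471748 to 90514557) had 39.3, 42.5 and 40.5 CPM in wild-type libraries and 29.2, 27.7 and 26.9 CPM in the mutant. POLR3GL (ENSG00000121851, chromosome 1, 145964690 to 145978848) had 17.2, 17.1 and 17.2 CPM in wild-type libraries and 15.0, 14.2 and 14.9 CPM in the mutant. In both genes the mutant libraries were lower without overlap, with log2 fold changes of -0.55 (adjusted p = 6.46e-10, edgeR) and -0.22 (adjusted p = 0.00113, edgeR). With library totals alone that of POLR3G was -0.43, short of 0.5 in size but still past the adjusted p, and that of POLR3GL, at -0.11, did not pass, nor did it without the second mutant library.

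Per kb of exon the pair was present at nearly equal levels. POLR3G made up 50.7%, 52.8% and 51.4% of the sum of both genes in the wild-type libraries and 46.6%, 46.7% and 44.9% in the mutant libraries. All mutant libraries were below wild type, and the means were 51.6% ± 1.09 and 46.1% ± 1.04 (SD, n = 3). The difference of the shares was not tested, and the level of the share depends on the lengths used. POLR3GL shares 21.1% of its exonic bases with a read-through gene on the same strand (ENSG00000280778), whose own log2 fold change was -0.51.

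**Figure D4:**
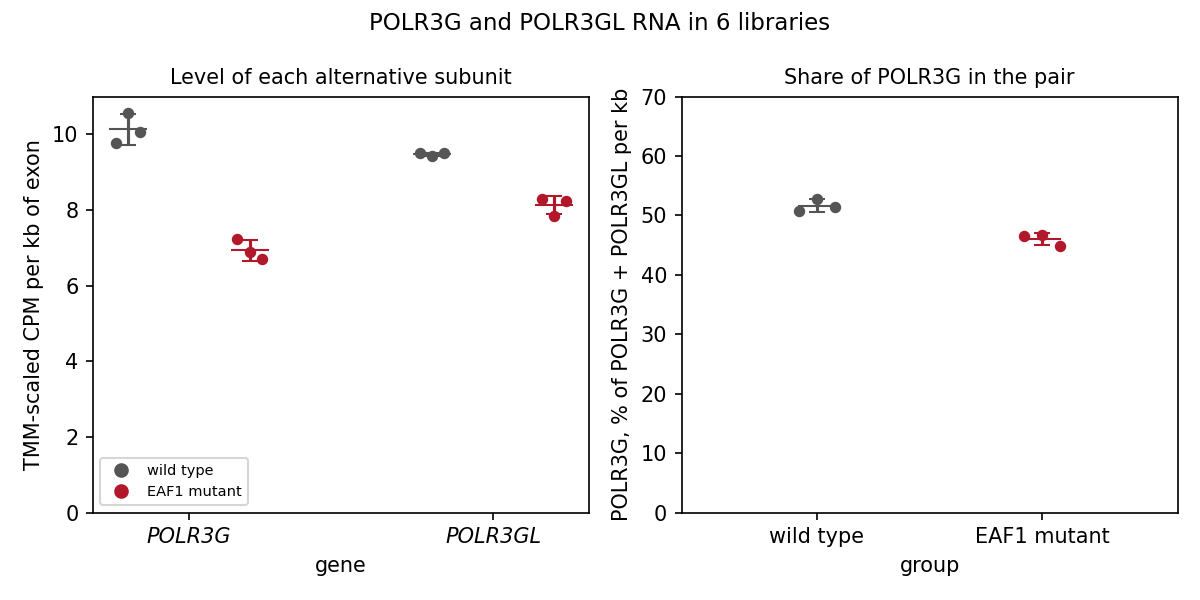
Left, TMM-scaled CPM per kb of exon of POLR3G and POLR3GL in 3 wild-type and 3 EAF1-mutant libraries; right, POLR3G as a percentage of the sum of both. Points are libraries and bars the mean with SD, and the share went from 51.6% to 46.1%.

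Fold changes of genes near a subunit were set beside it, since RNA of neighbouring genes differed between these cells by chromosome region. The neighbours were all tested protein-coding genes within 5 Mb on each side. For POLR3F, 37 neighbours had a median log2 fold change of -0.55, and 83.8% were below 0. The 71 neighbours of POLR3C had a median of -0.36 and the 73 of POLR3GL, which lies close by, had -0.37, with 94.4% and 94.5% below 0. POLR3F and POLR3C thus lay close to the genes around them, and the fall of POLR3GL was smaller than the median around it. The neighbours of POLR1D had a median of -0.19, those of POLR3E -0.12 and those of POLR3G -0.10.

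For the Pol I subunits the surroundings differed in sign. The medians of the neighbours were above 0 for all 6, from 0.02 at POLR1E to 0.18 at POLR1G; with library totals alone these medians would lie higher. After the neighbours' median was subtracted, the median of the class was -0.43 for Pol I, -0.18 for the pair shared by Pol I and III, -0.10 for Pol III, -0.18 for the class shared by all and 0.02 for Pol II. Within Pol III, POLR3B, POLR3G and POLR3E kept differences of -0.44, -0.44 and -0.37 from the medians of their neighbours. The median at POLR3G rests on 18 genes. Genes that overlap exons on the other strand also fell, MBLAC2 at POLR3G by 0.45 and a long noncoding RNA gene at POLR3B by 0.38 on the log2 scale. The part of chromosome regions in these results was not tested, and copy number was not measured.

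**Figure D5:**
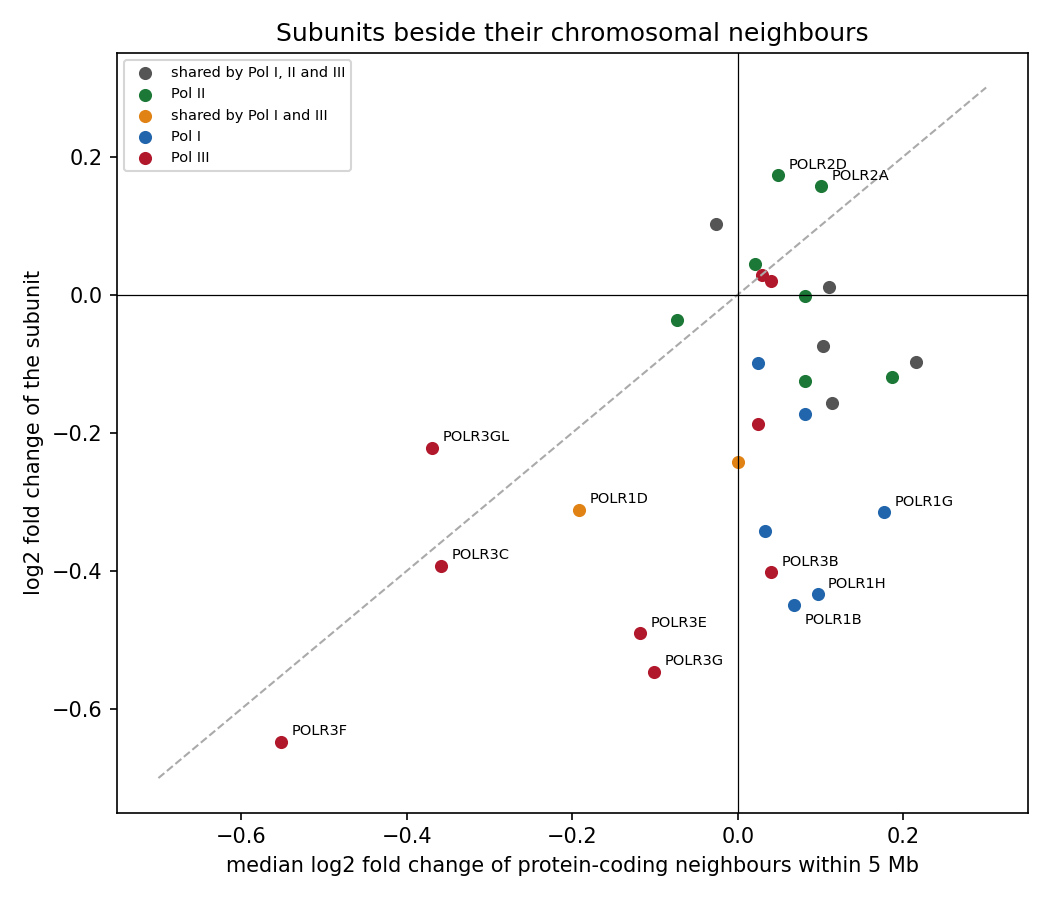
Log2 fold change of each subunit against the median log2 fold change of its tested protein-coding neighbours within 5 Mb; the dashed line marks equality. POLR3F and POLR3C lie near the line at low values, POLR3GL above it, and POLR1B, POLR1H, POLR1G and POLR3B far below it with neighbours above 0; library totals alone would shift both axes upward by the same amount.

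Several subunit genes start near a gene transcribed in the opposite direction. Distances were taken between annotated gene starts, so pairs that overlap are included and a shared promoter is not shown. For 13 of the 29, a protein-coding gene starts within 1000 bases of the subunit's start on the other strand. Of these 13 partners 4 fell and 2 rose past an adjusted p of 0.01 (edgeR), beside 21.1% and 20.5% of all tested genes and 37.0% and 23.9% of protein-coding genes averaging 10 CPM or more. Some partners lay below 10 CPM, and these shares were not tested against each other. RNF115, whose start lies 42 bases from that of POLR3C, had a log2 fold change of -0.29, and PTCD3, 68 bases from POLR1A, had -0.12. NOA1, 116 bases from POLR2B, had -0.14, and CLCN2, 60 bases from POLR2H, had -0.32. ZBTB4, 103 bases from POLR2A, had 0.41. These partners passed with the sign of their subunit, though POLR2A and POLR2H themselves did not pass. PPP1R13L, 295 bases from POLR1G, was the only partner to pass with the opposite sign, at 0.70, with 3.24 CPM in wild type. LNX2, 213 bases from POLR1D, had 0.03 and did not pass while POLR1D fell. DZANK1, which starts 403 bases from POLR3F, had -0.23 and did not pass (adjusted p = 0.0754, edgeR).

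RefSeq promoters (GRCh38.p14, from 250 bases before to 50 after the start) were matched for 22 of the 29 subunits. Those of POLR1B and POLR3E are printed as subunits whose falls were larger than the medians of their neighbours, that of POLR3F as the largest fall, and that of POLR2A as the largest subunit of Pol II, which did not fall. They lie at chr2:112541786-112542085, chr16:22297159-22297458, chr20:18467140-18467439 and chr17:7484116-7484415, all on the plus strand, and are written 5′ to 3′. Capitals mark matches on either strand to the motifs searched, which were CACGTG (E-box), CCGGAAG (ETS-type), GCATGCGC (NRF1-type), AAGATGGC (YY1-type), GGGCGG (GC box), CCAAT and TATAAA.
POLR1B: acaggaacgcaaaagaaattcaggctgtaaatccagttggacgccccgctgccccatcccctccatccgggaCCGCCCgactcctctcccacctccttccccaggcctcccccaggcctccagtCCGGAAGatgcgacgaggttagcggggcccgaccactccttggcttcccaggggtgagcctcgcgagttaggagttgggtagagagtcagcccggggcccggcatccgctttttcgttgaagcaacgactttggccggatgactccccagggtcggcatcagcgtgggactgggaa
POLR3E: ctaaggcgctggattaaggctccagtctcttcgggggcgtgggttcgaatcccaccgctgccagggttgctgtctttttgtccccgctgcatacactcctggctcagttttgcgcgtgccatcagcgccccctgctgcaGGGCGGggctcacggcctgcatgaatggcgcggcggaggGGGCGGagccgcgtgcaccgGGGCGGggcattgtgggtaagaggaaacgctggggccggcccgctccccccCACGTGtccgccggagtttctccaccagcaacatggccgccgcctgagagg
POLR3F: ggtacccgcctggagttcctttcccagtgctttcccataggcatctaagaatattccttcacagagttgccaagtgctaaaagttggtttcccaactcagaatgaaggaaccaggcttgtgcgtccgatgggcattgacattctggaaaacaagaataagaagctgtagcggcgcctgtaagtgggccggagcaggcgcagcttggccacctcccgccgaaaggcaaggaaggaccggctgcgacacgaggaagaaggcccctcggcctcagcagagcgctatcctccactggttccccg
POLR2A: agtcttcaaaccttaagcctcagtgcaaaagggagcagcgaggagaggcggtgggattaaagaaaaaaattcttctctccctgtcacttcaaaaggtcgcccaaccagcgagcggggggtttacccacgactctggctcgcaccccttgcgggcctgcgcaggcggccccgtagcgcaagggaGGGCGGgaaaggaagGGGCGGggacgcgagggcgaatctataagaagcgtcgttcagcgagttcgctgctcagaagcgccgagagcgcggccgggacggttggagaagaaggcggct

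The promoter of POLR1B held an ETS-type match and a GC box, that of POLR3E an E-box and GC boxes, that of POLR2A GC boxes, and the window of POLR3F none of these letters. The RefSeq start of that window lies 512 bases downstream of the gene start used elsewhere here, so the window does not cover the latter. Over the 22 matched promoters, 4 held CACGTG (POLR1G, POLR3A, POLR3C and POLR3E), where 7.43% of 27305 promoters did. By class these were 1 of 5 matched promoters of Pol I, 3 of 7 of Pol III, 0 of 4 of Pol II, 0 of 4 of the class shared by all and 0 of 2 of the pair shared by Pol I and III. Of these 4 genes POLR1G, POLR3C and POLR3E fell and POLR3A did not. Among subunits without a match some fell and some did not, and a link of any motif to fold changes was not tested. CCGGAAG was in 7 of 22 beside 10.7% of all promoters, and GGGCGG in 14 of 22 beside 44.6%. CCAAT was in 5 of 22 beside 35.7%, and TATAAA in 0 of 22 beside 12.0%. GCATGCGC was in 1, POLR2F, and AAGATGGC in 1, POLR1C, beside 3.27% and 3.03%. A match describes the letters in this window and nothing about binding.

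Initiation factors of the same machinery moved in both directions, as did protein-coding genes averaging 10 CPM or more, of which 37.0% were lower and 23.9% higher. Of 7 Pol I initiation factors, 3 fell and none rose at an adjusted p under 0.01 (edgeR), with a median log2 fold change of -0.04. RRN3, which links Pol I to its promoter factors, had -0.30, and TAF1B of the promoter selectivity complex had -0.46. TAF1A, of the same complex, had 18.9, 19.6 and 18.6 CPM in wild-type libraries and 12.7, 11.9 and 11.6 CPM in the mutant. Its groups did not overlap, and the log2 fold change was -0.66 (adjusted p = 6.50e-10, edgeR), beside a median of -0.30 for its neighbours. UBTF, TAF1C, TAF1D and TBP did not pass.

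Of 12 Pol III initiation factors and regulators, 4 fell and 3 rose, with a median of 0.02, shares near those 37.0% and 23.9%. GTF3A, the factor that binds 5S ribosomal RNA genes, had 104.7, 109.8 and 108.4 CPM in wild-type libraries and 61.0, 56.8 and 59.8 CPM in the mutant. It fell furthest in the list, with a log2 fold change of -0.86 (edgeR adjusted p = 1.65e-14) and neighbours at -0.19. GTF3C1, GTF3C4 and GTF3C6 also fell, by 0.19, 0.18 and 0.23 on the log2 scale, and BRF1, GTF3C5 and the repressor MAF1 rose, with log2 fold changes of 0.19, 0.24 and 0.17.

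Of 31 general transcription factors of Pol II, 12 fell and 5 rose, with a median of -0.04, so the share that fell was also near that of the protein-coding genes. TAF1, the largest subunit of TFIID, had 52.5, 61.6 and 59.3 CPM in wild-type libraries and 37.8, 37.9 and 39.1 CPM in the mutant. It was lower in every mutant library, with a log2 fold change of -0.59 (edgeR adjusted p = 6.13e-10), while its 43 neighbours on chromosome X had a median of -0.67. TAF7, GTF2E1, TAF8, TAF11 and TAF9 rose, with log2 fold changes from 0.25 to 0.48. Among 17 factors of polymerase assembly and import, 4 fell (RPAP2, RPAP3, PFDN2 and SLC7A6OS) and 7 rose (GPN3, URI1, PDRG1, PFDN6, RUVBL2, PIH1D1 and ZNHIT2), with a median of 0.03. Fewer of these fell and more rose than the 37.0% and 23.9% of protein-coding genes, a difference that was not tested.

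Further genes of polymerase subunits or with such names were also read. CRCP of Pol III had a log2 fold change of -0.04, POLRMT of mitochondria -0.10 and POLR2M -0.10, and none of these 3 passed an adjusted p of 0.01 (edgeR). POLR2J2 rose by a log2 fold change of 0.21, as did 1 of the 2 genes annotated as POLR2J3, and these copies cannot be counted apart with certainty.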

How the data were processed

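Total RNA depleted of ribosomal RNA was sequenced for 3 wild-type and 3 EAF1-mutant HEK293T libraries, grouped by their labels; the other assays of the series were not analysed here. The authors trimmed reads, mapped them to GRCh38 with HISAT2 and deposited raw counts per Ensembl gene from Rsubread. The kit was stranded, but how strand and multi-mapped reads were treated in counting is not stated in those sources. Symbols and lengths came from GENCODE v44, which covers 57754 of the 58395 gene IDs. With edgeR 4.0.16 under R 4.3.3, the counts were taken through filterByExpr, TMM factors, quasi-likelihood tests and Benjamini-Hochberg adjusted p-values over 28025 genes. These steps were also run on simulated counts with far fewer changed genes and equal chances of rise and fall. That run does not check the scaling of these data. The biological coefficient of variation was 4.11%. Thresholds were an adjusted p of 0.01, alone or with a log2 fold change of 0.5. DESeq2 1.42.0, other scalings and filters, a replicate block, other lengths and each library left out were alternatives. Named genes were the largest subunits, POLR3G, POLR3GL, genes past both thresholds and the 3 most and 3 least abundant; further genes were chosen after their values were seen. Members and lists were chosen with earlier results of these data known. One listed gene is not reported here.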

Additional observations from a re-analysis of the deposited data

How the results depend on the processing

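The falls of Pol I, of the pair shared by Pol I and III and of Pol III had medians below 0 under every alternative, and scaling moved them most. Scaled by library totals without TMM, class medians were 0.041 for the class shared by all, 0.11 for Pol II, -0.16 for the pair shared by Pol I and III, -0.21 for Pol I and -0.28 for Pol III. With that scaling 4 subunits rose, 1 fell past both thresholds, and log2 fold changes of subunits that had not passed crossed 0, to 0.079 for POLR2C, 0.11 for POLR2G, 0.041 for POLR2H, 0.019 for POLR2L and 0.016 for POLR1E. The cause is the shift of all genes. With at least 1 CPM in 3 libraries POLR2G was at 0.014, and with no filter 2 subunits rose; the cause was not tested. With the replicate block 2 subunits rose, the added call being POLR2A. The numbers of same-numbered libraries did not pair them, with deviation correlations of -0.0054, -0.017 and 0.0097, and not every library correlated best with its own number.

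With 1 library left out, 13 to 18 subunits fell, 0 to 2 rose and 2 to 3 fell past both thresholds. Genes numbered 5202 to 5965 lower and 4935 to 5252 higher at the adjusted p, and 2493 to 2664 and 2790 to 2924 past both thresholds. Class medians ran from -0.11 to -0.07 for the class shared by all, -0.02 to 0.02 for Pol II, -0.29 to -0.27 for the pair, -0.35 to -0.32 for Pol I and -0.40 to -0.37 for Pol III. Values that had not passed crossed 0 for POLR3A (-0.051 to 0.063), POLR2E (-0.039 to 0.030), POLR3D (-0.016 to 0.029) and POLR2G (-0.024 to 0.020), where fewer libraries are the alternative itself. Wild-type class medians ran from 19.4 to 20.4 CPM per kb for the class shared by all, 23.3 to 25.0 for Pol II, 9.94 to 10.0 for the pair, 13.2 to 13.3 for Pol I and 9.46 to 9.50 for Pol III.

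Leaving out 6 subunits with shared exons or copies, an alternative chosen after seeing the data, gave medians of -0.031 for the class shared by all and -0.26 for Pol I. Wild-type medians moved with the length by construction. Per kb of the longest transcript they were 33.9 for the class shared by all, 39.0 for Pol II, 23.5 for the pair, 15.4 for Pol I and 11.8 for Pol III. Per kb of the canonical transcript, also chosen after seeing the data, they were 33.9, 61.7, 75.8, 18.3 and 12.4. With library totals the pair, Pol I and Pol III were at 9.58, 12.7 and 9.10. Over the 29 subunits and 12 alternatives, 316 log2 fold changes kept their direction and side of the threshold, 13 lost a call, 8 gained a call and 11 crossed 0.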
